A study of Papio hamadryas with 4 samples.

Results

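The kidney of baboons with high SLC (HSLC) was compared with that of baboons with normal SLC (NSLC) after a high sodium diet. The comparison uses 2 of the 4 arrays of the study, chosen by their labels alone: the HSLC array and the NSLC array of kidney biopsies taken after 6 weeks on high sodium. Baboons (Papio hamadryas) of each phenotype also had 6 weeks on low sodium, with a biopsy and an array after it, and these other 2 arrays are given beside the results. The labels give no genotype, sex, age, drug or other treatment, and the sources used here give neither the number of animals behind an array nor the order of the diets. RNA was labelled with Cy3 and hybridised to Illumina bead arrays whose probes were designed on human genes. Each group has 1 array, so every difference below is a ratio of 1 array to another, with no error and no test.

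The labels do not spell out SLC. In baboon studies of blood pressure it stands for sodium-lithium countertransport, an exchange activity of the red cell membrane that is raised in some people with essential hypertension, and the title of the study links the phenotypes to blood pressure. The kidney sets the body's sodium content. The proximal tubule takes back most filtered sodium, together with phosphate, glucose, amino acids and organic anions, and pays for it with mitochondrial fat oxidation. The thick ascending limb and the distal convoluted tubule take back more with chloride, and the collecting duct adjusts the remainder through the epithelial sodium channel under aldosterone. Angiotensin, kinins and nitric oxide act on vessels and tubules to raise or lower that uptake.

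Of 18774 genes with a probe that carries 1 gene symbol, 12517 were detected on both high sodium arrays, which means that their intensity was above the median of each array. The median deposited intensity was 79.5 on the NSLC array and 68.2 on the HSLC array, and 77.7 and 72.1 on the low sodium arrays of the same phenotypes. Levels below are log2 intensities after quantile normalization of the 4 arrays, on which the median probe has a level of 6.23. Over 11909 genes detected on all 4 arrays the 2 high sodium arrays correlated with a Pearson r of 0.987, and the 6 pairs of arrays ranged from 0.977 to 0.993. The kidney label was checked against markers. Of 24 proximal tubule markers 18 were detected on both arrays, beside 12517 of all 18774 genes, so this count alone says little about the tissue. The median level of the 18 on high sodium was 10.18 in NSLC and 9.22 in HSLC, against 6.23 for the median probe. AQP2, the water channel of the collecting duct, was at 6.71 and 7.31 in NSLC on low and then high sodium. In HSLC AQP2 was at 6.69 and 7.03. NPHS1, the nephrin of podocytes, was at 6.40 and 6.44 in NSLC and at 6.35 and 6.40 in HSLC, close to the median of the arrays. UMOD was not analysed here.

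Levels on all 4 arrays are given in this order throughout, low then high sodium in NSLC and low then high sodium in HSLC. The ratio that follows is the log2 difference of HSLC over NSLC on high sodium, and a gene is counted as higher or lower when it reaches 2-fold (1 on the log2 scale). By this size rule 12 genes were higher in HSLC, 0.0959% of the genes detected, and 44 were lower, 0.352%, which makes 56 in all (0.447%). At 1.5-fold the counts were 58 higher (0.463%) and 270 lower (2.16%). The ratios were narrow, with a median of 0.02, a standard deviation of 0.23 and 95.8% of genes within 0.5 of 0. Slightly more genes lay above 0 (7016, 56.1%) than below it (5491, 43.9%), while the lower tail was the longer one, with the 1st percentile at -0.77 and the 99th at 0.47. Just inside the rule were SLC30A9 at 1.08 and SHBG at -1.01, and just outside it BPI at 0.98 and REG3G at -0.99. With no scaling between arrays the median ratio of all genes is -0.142, so the excess of lower genes is given as a split that scaling moves: 21.4% of the genes past 2-fold were higher here, and 5.39% without scaling.

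**Figure D1:**
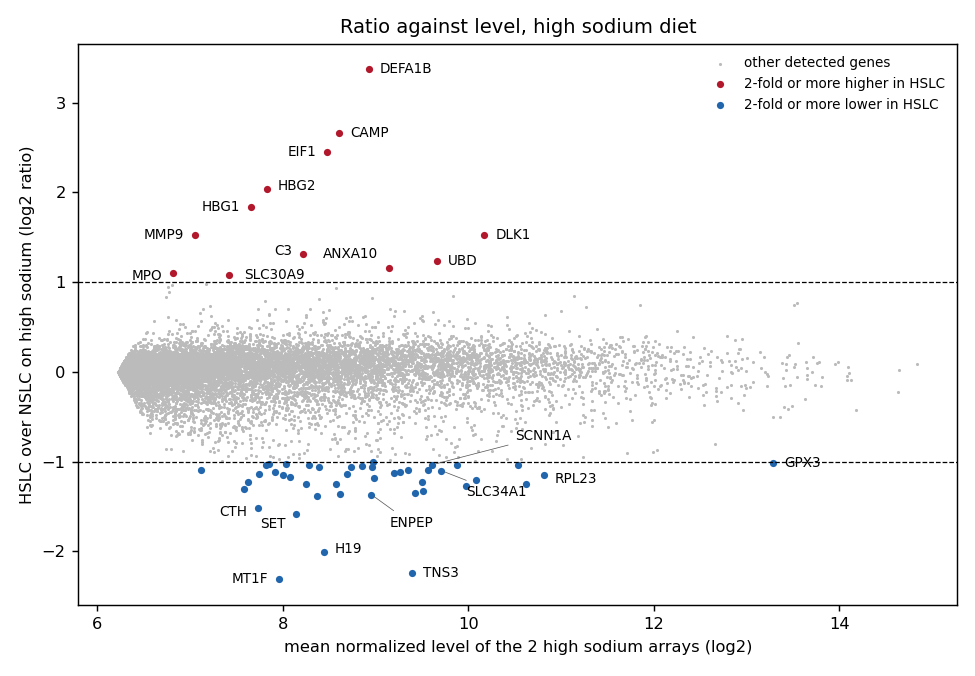
Log2 ratio of HSLC over NSLC on high sodium (vertical) against the mean normalized log2 level of both arrays (horizontal), 1 point for each of the 12517 genes detected on both. Dashed lines mark 2-fold. The 12 genes higher in HSLC reach 3.37 (DEFA1B) and the 44 lower genes reach -2.31 (MT1F). None of the 3130 dimmest genes can pass, since detection puts both levels above 6.23 and their mean is at most 6.57.

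Genes of neutrophil granules led the higher side. DEFA1B, an alpha-defensin that kills microbes inside neutrophils, was at 6.39 and 7.24 in NSLC and at 7.17 and 10.61 in HSLC, a ratio of 3.37 or 10.3-fold. CAMP, the cathelicidin of the same cells, was at 6.98 and 7.28 in NSLC and at 7.32 and 9.94 in HSLC, a ratio of 2.66 or 6.32-fold. Both stood high on the HSLC high sodium array alone. MPO, the peroxidase of neutrophil granules, was at 6.29 and 6.27 in NSLC and at 6.29 and 7.37 in HSLC, a ratio of 1.10. MMP9, a gelatinase that neutrophils store and many cells can make, was at 6.02 and 6.29 in NSLC and at 6.04 and 7.81 in HSLC, a ratio of 1.52 and so 2.87-fold. For MPO and MMP9 the other arrays lay near or below the median level, and the HSLC high sodium array alone was well above it. DEFA1B has near-identical gene copies that a probe may not tell apart. Its second detected probe gave a ratio of 1.91.

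The neutrophil list did not move as a block. Of its 17 members 10 were detected on both arrays, 8 of them above 0 and 3 at 2-fold, with a median of 0.15 against 0.02 over all genes. Other granule genes were LTF (lactoferrin) at 0.33, ELANE (neutrophil elastase) at 0.06, DEFA4 (another alpha-defensin) at 0.00 and, on the other side, LCN2 (lipocalin 2, which injured tubules also make) at -0.24. S100A9, abundant in mature neutrophils, was at 6.38 and 6.40 in NSLC and at 6.38 and 6.43 in HSLC with a ratio of 0.03, and S100A8, S100A12, MMP8, CSF3R and CXCR2, further markers of mature neutrophils, were not detected on both arrays. The summed normalized intensity of the list was 1343 and 1379 in NSLC and 1395 and 3744 in HSLC. BPI (a bactericidal granule protein, 0.98) and FOLR3 (a folate receptor secreted by blood cells, 0.95), both named here after their values were seen, were just short of 2-fold. In bulk tissue, more cells of a type and more RNA per cell cannot be told apart, and how far blood or marrow-derived cells take part in these ratios was not tested.

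Fetal globins were higher in HSLC on both diets. HBG2, a gamma globin of fetal haemoglobin, was at 7.81 and 6.81 in NSLC and at 9.11 and 8.85 in HSLC, a ratio of 2.03 or 4.09-fold. HBG1, its near-identical copy, was at 7.59 and 6.74 in NSLC and at 8.89 and 8.58 in HSLC, a ratio of 1.83, and the signal of both probes may come from the same transcripts. On each diet the HSLC array was above the NSLC array. The adult globins went the same way by less: HBA1 was at 13.75 and 13.16 in NSLC and at 14.03 and 13.93 in HSLC and HBB at 13.78 and 13.14 in NSLC and at 14.10 and 13.88 in HSLC, with ratios of 0.77 and 0.75. AHSP, which stabilises alpha globin in red cell precursors, was not detected on the NSLC high sodium array and was detected on the other 3, with intensities of 84.9 and 76.9 in NSLC and 79.3 and 180 in HSLC, which puts it at least 2.51-fold higher in HSLC on high sodium. RHAG (a Rh-associated membrane protein, 0.83) and HBQ1 (theta globin, 0.96), named after their values were seen, were at 6.57 and 6.32 in NSLC and at 6.45 and 7.16 in HSLC and at 6.71 and 6.32 in NSLC and at 7.14 and 7.29 in HSLC, with the HSLC high sodium array the highest of the 4 for each. All 8 detected members of the 15-member erythrocyte list were above 0, 2 at 2-fold, with a median of 0.64 on high sodium and 0.16 on low sodium. ALAS2 (haem synthesis, 0.12) and SLC4A1 (the band 3 anion exchanger, 0.02) lay near 0. The list's summed normalized intensity was 29274 and 19209 in NSLC and 36317 and 32587 in HSLC, lowest on the NSLC high sodium array, and the part that blood in the biopsies has in it was not tested.

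A further set of higher genes belongs to complement and interferon responses. C3, the central complement protein, was at 6.88 and 7.56 in NSLC and at 6.85 and 8.87 in HSLC, a ratio of 1.31 or 2.48-fold. Its second probe gave 0.77. UBD, a ubiquitin-like protein that interferon-gamma induces, was at 8.46 and 9.04 in NSLC and at 8.14 and 10.28 in HSLC, a ratio of 1.24 that is short of 2-fold without normalization or with median scaling. For both, the HSLC high sodium array was the highest of the 4 and the NSLC high sodium array the next. The rest of their lists stayed close to all genes: 11 of 20 detected complement members were above 0, with a median of 0.03 that turns negative in 4 of 8 other scalings, and 7 of 11 interferon-gamma members, with a median of 0.06 that turns negative in 2. GBP2, a guanylate-binding protein of the interferon-gamma response, followed UBD at 0.81, while GBP1 was at -0.24. Complement genes on the other side were C7 (-0.63), C5 (-0.59) and C2 (-0.54). Among type I interferon genes 12 of 21 were above 0 with a median of 0.02 that turns negative in 3 scalings, and ISG15 had the highest ratio, 0.56.

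Lymphocyte and macrophage markers were higher by small amounts. All 13 detected members of the T and NK cell list were above 0, where 56.1% of all genes were, with a median of 0.20 and 0 at 2-fold. CD2, an adhesion receptor of T and NK cells, was at 6.68 and 6.85 in NSLC and at 6.75 and 7.58 in HSLC, a ratio of 0.73. CD8A was at 0.54, KLRD1 at 0.37 and GZMA (granzyme A) at 0.35, while CD3E was at 0.09. The other detected probes of CD8A and KLRD1 gave 0.20 and 0.08. The list's summed normalized intensity was 1643 and 1710 in NSLC and 1680 and 2036 in HSLC, and CD3D, CD247, IL7R and NKG7 were not detected on both arrays. Of 13 detected macrophage and monocyte markers 10 were above 0, with a median of 0.22 and with TYROBP (0.70), C1QC (0.53), LYZ (0.52) and AIF1 (0.50) at the top and CD68 at -0.33 at the bottom; the sums were 4116 and 6064 in NSLC and 4257 and 7445 in HSLC. The medians of both lists stayed above 0 in all 8 other scalings. Other genes of leukocyte signalling and motility, picked after their values were seen, were DOCK2 (0.80), CORO1A (0.71), WAS (0.70) and HCST (0.67).

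Antigen presentation genes split. HLA-DPA1, the alpha chain of a class II molecule, was at 8.90 and 9.42 in NSLC and at 9.17 and 10.26 in HSLC, a ratio of 0.84, and HLA-DRA was at 0.55, while the invariant chain CD74 was at -0.19 and HLA-DMB at -0.28. The class II median was 0.01, with 6 of 12 above 0, and turns negative in 4 of 8 other scalings. In class I, HLA-F (0.56) and the immunoproteasome subunit PSMB10 (0.46) stood opposite HLA-G (-0.88) and HLA-B (-0.51). The class I median was 0.18 with 10 of 15 above 0, and turns negative in 2 of 8 other scalings. HLA genes share sequence and differ between baboon and human, so single probes of the family are uncertain.

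The remaining higher genes form no common group. EIF1, which helps ribosomes find the start codon, was at 9.87 and 7.26 in NSLC and at 9.67 and 9.71 in HSLC, a ratio of 2.45 or 5.46-fold that comes from a low value on the NSLC high sodium array alone. DLK1, an imprinted Notch-related protein, was at 9.72 and 9.41 in NSLC and at 10.22 and 10.94 in HSLC, a ratio of 1.52. Its second probe gave 1.23. ANXA10, an annexin, was at 8.44 and 8.57 in NSLC and at 9.91 and 9.73 in HSLC, a ratio of 1.16 that is short of 2-fold without normalization, with median scaling and in the series matrix, with both HSLC arrays above both NSLC arrays. SLC30A9, of the zinc transporter family, was at 6.59 and 6.89 in NSLC and at 7.11 and 7.96 in HSLC, a ratio of 1.08 that is short of 2-fold without normalization and in the series matrix. Among the 15 highest ratios of the brighter genes, and short of 2-fold, were also HLA-H, of the class I family, at 0.85 and FLRT3, an adhesion protein, at 0.83. Over the 12 higher genes the HSLC high sodium array was the highest of the 4 in 8 and the NSLC high sodium array the lowest in 5. Of the genes detected on all 4 arrays the HSLC high sodium array was the highest in 29.4%.

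**Figure D2:**
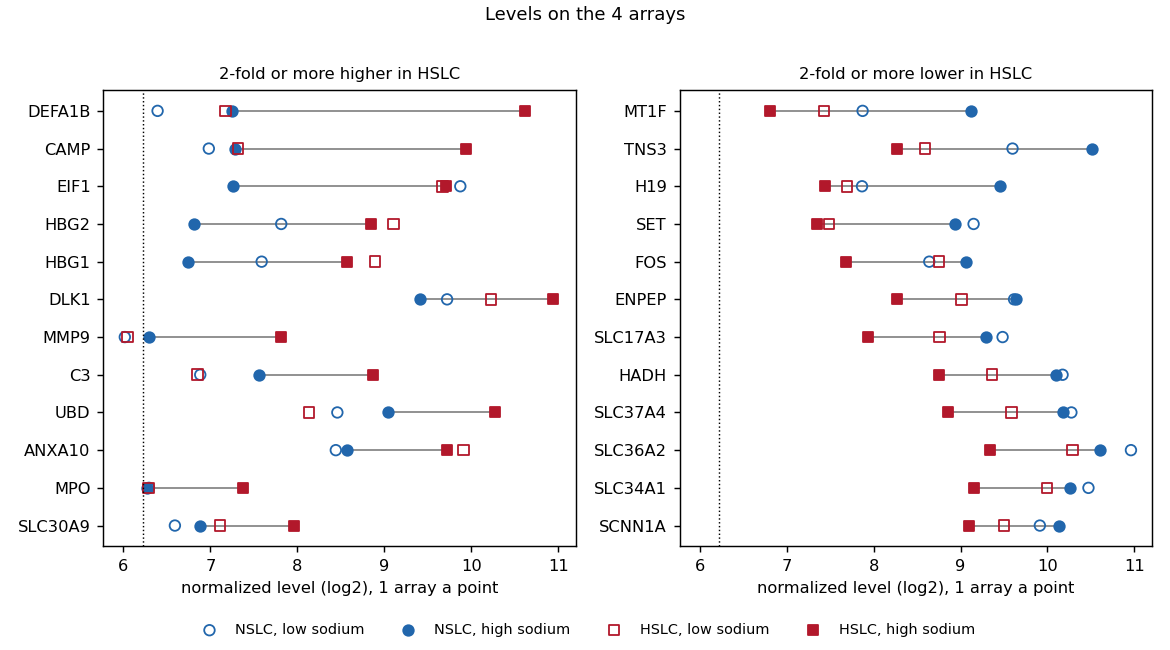
Normalized log2 levels (horizontal) of the 12 genes higher (left) and of 12 of the 44 genes lower (right) in HSLC on high sodium, with 1 symbol for each array: circles NSLC, squares HSLC, open low sodium, filled high sodium. Grey lines join the 2 high sodium arrays, and the dotted line is the median level, 6.23; EIF1 has 3 arrays between 9.67 and 9.87 and the NSLC high sodium array at 7.26.

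On the lower side, markers of the proximal tubule lay below 0 together by mostly less than 2-fold. Of the 18 proximal tubule markers detected on both arrays 17 were below 0, where 43.9% of all genes were, and their median was -0.40 on high sodium and -0.15 on low sodium. The median level of these markers was 10.48 and 10.18 in NSLC and 10.14 and 9.22 in HSLC, lowest on the HSLC high sodium array. The summed normalized intensity was 37212 and 30941 in NSLC and 35171 and 25016 in HSLC, also lowest on that array. Relative to the median of all genes, the list's median ranged from -0.56 to -0.41 over 8 other scalings. SLC34A1 alone passed 2-fold, and 5 markers (SLC5A12, SLC17A1, AGXT2, ACSM2A and BHMT) were not detected on both arrays. DCXR, a xylulose reductase, was the 1 marker above 0, at 0.06.

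Markers of the other nephron segments had medians nearer to 0. The thick ascending limb list had a median of -0.01 (6 genes), the intercalated cells -0.01 (8 genes), the principal cells of the collecting duct -0.12 (7 genes) and the podocytes 0.10 (8 genes). The distal convoluted tubule list had a median of 0.11 (6 genes), which turns negative in 3 of 8 other scalings, and that of the podocytes turns negative in 1. The difference between the proximal list and the others was not tested, as the lists have 1 array on each side.

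**Figure D3:**
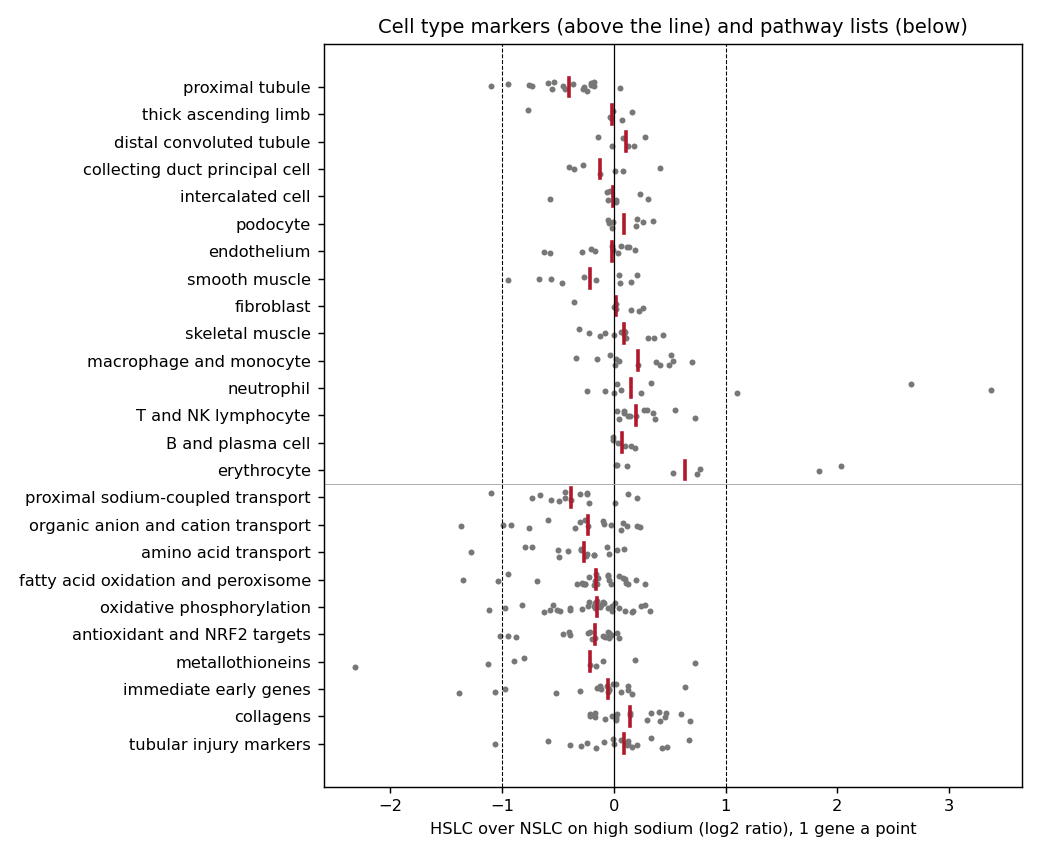
Log2 ratios of HSLC over NSLC on high sodium (horizontal) for the detected members of 15 cell type lists and 10 pathway lists, 1 grey point for each gene, with the list median as a red bar. The proximal tubule median is -0.40 and the erythrocyte median 0.64; dashed lines mark 2-fold.

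Transporters of the proximal brush border and basolateral membrane lay mostly to the same side as the markers. Of the genes below, SLC34A1, SLC22A6, SLC22A8, LRP2 and CUBN are themselves in the marker list, so their values are not separate from it. SLC34A1, the sodium-phosphate cotransporter NaPi-IIa, was at 10.47 and 10.26 in NSLC and at 9.99 and 9.16 in HSLC, a ratio of -1.10. SLC17A3, which carries urate and organic anions, was at 9.48 and 9.30 in NSLC and at 8.76 and 7.94 in HSLC, a ratio of -1.36 or 2.57-fold lower. SLC36A2, which takes up glycine and proline with protons, was at 10.96 and 10.61 in NSLC and at 10.29 and 9.34 in HSLC, a ratio of -1.27. In each of the 3 the HSLC high sodium array was the lowest and the HSLC low sodium array the next. Below 0 were 12 of 17 organic anion and cation transporters, with a median of -0.23, among them the urate exchanger SLC22A12 (-0.99), the efflux pump ABCC4 (-0.91) and the basolateral anion exchangers SLC22A6 (-0.76) and SLC22A8 (-0.58). Below 0 were also 14 of 16 amino acid transporters, with a median of -0.27, among them SLC16A10 (-0.79), SLC3A1 (-0.73) and SLC7A8 (-0.50). The other detected probe of SLC22A12 gave -0.55, and those of SLC7A8 gave -0.32 and -0.01. The endocytic receptors LRP2 (megalin) and CUBN (cubilin), which retrieve filtered protein, were at -0.55 and -0.54, against 0.15 and 0.07 on low sodium.

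Of the brush border peptidases, DPP4 and ENPEP were at 2-fold lower and others were not. DPP4, which trims peptides such as incretins, was at 8.98 and 8.87 in NSLC and at 8.06 and 7.63 in HSLC, a ratio of -1.24. ENPEP, aminopeptidase A, which turns angiotensin II into angiotensin III, was at 9.62 and 9.64 in NSLC and at 9.01 and 8.27 in HSLC, a ratio of -1.37 or 2.58-fold lower. The 2 NSLC arrays were nearly level for both genes, and the HSLC high sodium array was the lowest. MME (neprilysin) was at -0.35 and ACE at -0.20, while ANPEP (aminopeptidase N), also of the brush border, was at 0.13, a sign that turns in 3 of 8 other scalings. The other detected probes of MME gave -0.15 and 0.05.

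Genes of fuel oxidation lay to the same side. HADH, which catalyses a step of mitochondrial fatty acid oxidation, was at 10.17 and 10.10 in NSLC and at 9.36 and 8.76 in HSLC, a ratio of -1.34. DECR1, which handles unsaturated fatty acids, was at 10.82 and 11.06 in NSLC and at 10.42 and 10.02 in HSLC, a ratio of -1.04. Of 26 detected fatty acid oxidation and peroxisome genes 19 were below 0 and 2 at 2-fold, with a median of -0.15, and CAT (catalase) and EHHADH were at -0.94 and -0.68. In the respiratory chain 26 of 34 were below 0, with a median of -0.15. The complex I subunit NDUFB5 was at 9.59 and 9.82 in NSLC and at 8.92 and 8.71 in HSLC, a ratio of -1.11, followed by the cytochrome oxidase subunits COX7C (-0.97) and COX6C (-0.82). The citric acid cycle had 13 of 18 below 0 and a median of -0.17, led by PDHA1 (pyruvate dehydrogenase) at -0.88. PPARA and PPARGC1A, regulators of fat oxidation, were at 0.05 and 0.20.

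Glucose output and cysteine metabolism gave further lower genes. SLC37A4, which brings glucose 6-phosphate into the endoplasmic reticulum, was at 10.28 and 10.18 in NSLC and at 9.59 and 8.85 in HSLC, a ratio of -1.33. Its partners in gluconeogenesis FBP1, PCK2 and G6PC1 were at -0.94, -0.65 and -0.43, whereas PCK1 was at -0.20. The other detected probes of PCK2 gave 0.02 and -0.09. The gluconeogenesis list had 6 of 11 below 0 and a median of -0.20, and FBP1 and PCK1 are also in the proximal tubule marker list. CTH, which makes cysteine and hydrogen sulfide, was at 7.95 and 8.50 in NSLC and at 7.40 and 6.98 in HSLC, a ratio of -1.52 or 2.87-fold lower. Among the arachidonate cytochromes and epoxide hydrolases, which make and break vasoactive eicosanoids, 5 of 6 were below 0, with EPHX2 (soluble epoxide hydrolase) at -0.62, CYP4A11 at -0.42 and CYP2C8 on the other side at 0.35.

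Metal and peroxide defence held the lowest ratio of all. MT1F, a metallothionein that binds zinc and copper, was at 7.87 and 9.12 in NSLC and at 7.43 and 6.81 in HSLC, a ratio of -2.31 or 4.96-fold lower. MT1G was at 9.18 and 9.76 in NSLC and at 9.17 and 8.64 in HSLC, a ratio of -1.13. Both were highest on the NSLC high sodium array and lowest on the HSLC high sodium array. MT2A and MT1X followed at -0.89 and -0.81, MT1E was at -0.10 and MT1B at 0.73, and the metal sensor MTF1 was at 0.19. Metallothioneins are near-identical copies, so probes of the family are uncertain. GPX3, the plasma glutathione peroxidase made by proximal tubules, was among the brightest genes at 13.68 and 13.80 in NSLC and at 13.54 and 12.78 in HSLC, a ratio of -1.02 that falls short of 2-fold when only the 2 high sodium arrays are normalized together. Of 19 antioxidant genes 17 were below 0, with a median of -0.17; besides CAT, SOD1 (superoxide dismutase) was at -0.87, while NQO1 and GCLM, targets of NRF2, were at -0.19 and -0.03.

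Some early response genes were lower in HSLC on high sodium and not on low sodium by value. FOS, a transcription factor induced within minutes of stimulation, was at 8.64 and 9.07 in NSLC and at 8.75 and 7.68 in HSLC, a ratio of -1.39 against 0.11 on low sodium. ATF3, a stress-induced transcription factor, was at 6.99 and 8.92 in NSLC and at 7.73 and 7.86 in HSLC, with -1.06 against 0.74. The NSLC high sodium array was the highest of the 4 for both. ZFP36, which destabilises inflammatory messages, was at -0.97 against 0.30, and EGR1 at -0.52 against 0.81. The list as a whole was close to all genes, with 13 of 19 below 0 and a median of -0.05, and the main partner of FOS, JUN, was at -0.06. KLF2, a flow-responsive factor of endothelium, stood on the other side at 0.64. RASD1, a glucocorticoid-inducible Ras relative, was at 7.60 and 9.49 in NSLC and at 7.74 and 8.44 in HSLC, with -1.05 against 0.14. RCAN1, an inhibitor of calcineurin, was at 8.54 and 9.26 in NSLC and at 8.06 and 8.13 in HSLC. Its ratio was -1.13 against -0.47 on low sodium, so RCAN1 was lower on both diets. The second probe of RCAN1 gave -0.28 on high sodium.

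Several of the lowest ratios belonged to genes outside these groups. TNS3, a tensin that links integrins to actin, was at 9.60 and 10.52 in NSLC and at 8.59 and 8.27 in HSLC, a ratio of -2.24 or 4.74-fold lower. H19, an imprinted noncoding RNA, was at 7.87 and 9.45 in NSLC and at 7.70 and 7.44 in HSLC, a ratio of -2.01. SET, a histone chaperone that inhibits protein phosphatase 2A, was at 9.15 and 8.93 in NSLC and at 7.49 and 7.35 in HSLC, a ratio of -1.58. For TNS3 and SET both HSLC arrays were below both NSLC arrays, while for H19 the NSLC high sodium array stood apart from the other 3. IGF2, the imprinted neighbour of H19, was at -0.24. C1orf115 and WBP2, a WW domain binding protein, were at -1.31 and -1.24, and the ribosomal protein RPL23 was at -1.15 beside a median of -0.01 over 41 ribosomal proteins.

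The naming rule leaves 19 genes of the lower side, between -1.23 and -1.01. Among those picked after their values were seen, PSAP (the precursor of the saposins of the lysosome) was at 10.06 and 10.68 in NSLC and at 9.82 and 9.48 in HSLC, a ratio of -1.20. ADH1C (an alcohol dehydrogenase, -1.23), UGT2B4 (a glucuronosyltransferase, -1.10), XYLB (xylulokinase, -1.02), SLC30A2 (a zinc transporter, -1.15) and SHBG (the sex hormone binding globulin, -1.01) were others. Over all 44 lower genes the HSLC high sodium array was the lowest of the 4 in 38 and the NSLC high sodium array the highest in 32. Over the genes detected on all 4 arrays these orders held for 18.9% and 28.2%, and since the 44 genes were picked by the ratio of these arrays, their order is a description only.

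Sodium transport was next followed along the nephron. In the proximal tubule 12 of 15 detected sodium-coupled transporters and their partners were below 0 and 1 at 2-fold, with a median of -0.38 against -0.07 on low sodium. After SLC34A1 came SLC13A3 (dicarboxylate uptake, -0.73), SLC4A4 (the bicarbonate exit path NBCe1, -0.66), SLC13A1 (sulfate uptake, -0.56) and CA4 (membrane carbonic anhydrase, -0.49). The other detected probes of SLC13A3 gave -0.14 and -0.02. Members of this list, SLC34A1, SLC13A3 and SLC5A2 among them, are also proximal tubule markers, so the medians of both lists share values. The glucose cotransporter SLC5A2 (SGLT2) and the scaffold NHERF1 were both at -0.43, and SLC5A8 and SLC20A2 were above 0 at 0.12 and 0.20. The sodium-proton exchanger SLC9A3 was not detected on both arrays.

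In the thick ascending limb SLC12A1, the cotransporter NKCC2 that loop diuretics block, was at 7.44 and 8.55 in NSLC and at 7.60 and 7.79 in HSLC, a ratio of -0.77. The NSLC high sodium array was the highest of the 4. The other members of that list lay between -0.17 (WNK4) and 0.27 (IRX1), with the potassium channel KCNJ1 at 0.17. In the distal convoluted tubule SLC12A3, the thiazide-sensitive cotransporter NCC, was at 9.53 and 8.44 in NSLC and at 9.46 and 8.57 in HSLC, a ratio of 0.13 that turns negative in 3 of 8 other scalings. Of the other members of its list, 0 were at 2-fold, with the lowest KCNJ10 at -0.15. Its regulators WNK1, STK39 and KLHL3 were at 0.15, 0.24 and 0.03.

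The subunits of the epithelial sodium channel did not move together. SCNN1A, the alpha subunit, was at 9.91 and 10.13 in NSLC and at 9.50 and 9.09 in HSLC, a ratio of -1.03 that falls short of 2-fold in the series matrix. SCNN1B, the beta subunit, was at 8.67 and 8.08 in NSLC and at 8.67 and 8.50 in HSLC, a ratio of 0.41, and SCNN1G, the gamma subunit, at 8.60 and 8.01 in NSLC and at 8.41 and 7.89 in HSLC, a ratio of -0.12. NEDD4L, the ubiquitin ligase that removes the channel from the membrane, was at 9.05 and 8.63 in NSLC and at 9.09 and 9.16 in HSLC, a ratio of 0.53. The alpha subunit and NEDD4L thus lay on opposite sides of 0. The aldosterone-induced kinase SGK1 was at 0.00, the mineralocorticoid receptor NR3C2 at 0.02, HSD11B2, which shields that receptor from cortisol, at -0.37, the channel-activating protease PRSS8 at -0.29 and TSC22D3 (GILZ) at 0.32. The list had 7 of 13 above 0 and a median of 0.02, which turns negative in 5 of 8 other scalings.

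Sodium pump genes differed little, with 6 of 10 above 0 and a median of 0.03 that turns negative in 3 of 8 other scalings. The beta subunit ATP1B1 was at -0.06, the regulator FXYD2 at -0.05, FXYD4 at -0.36 and FXYD5 at 0.42. The other detected probe of FXYD2 gave 0.21. Candidates for sodium-proton and sodium-lithium exchange, the activity behind the name of the phenotype, had 5 of 8 detected members above 0 and 0 at 2-fold, with a median of 0.03 that turns negative in 3 scalings. SLC9A2 was at -0.27, SLC9A5 at -0.15, SLC9A4 at 0.04, SLC9A9 at 0.16 and the mitochondrial sodium-lithium-calcium exchanger SLC8B1 at 0.02. Of the adducins, membrane skeleton proteins that have been tied to sodium pump activity and hypertension, ADD3 (gamma) was at 9.32 and 9.20 in NSLC and at 8.30 and 7.96 in HSLC, a ratio of -1.25, with both HSLC arrays below both NSLC arrays. Its second probe gave -0.79. ADD1 and ADD2 were at 0.02 and 0.03.

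**Figure D4:**
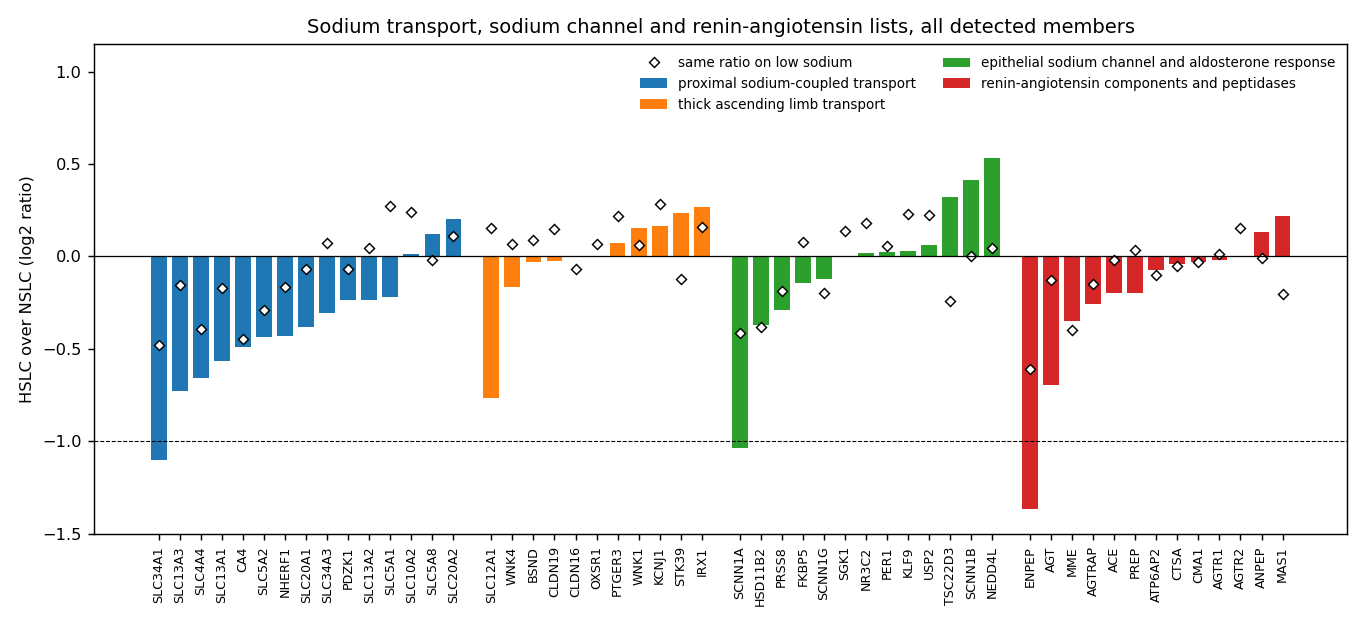
Log2 ratio of HSLC over NSLC (vertical) for every detected member of 4 lists, as bars for high sodium and open diamonds for low sodium. The dashed line marks 2-fold lower, which SLC34A1 (-1.10), SCNN1A (-1.03) and ENPEP (-1.37) pass on high sodium and none on low sodium.

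Hormone systems gave few large ratios. In the renin-angiotensin list 10 of 13 detected members were below 0, with a median of -0.08 and ENPEP alone at 2-fold. AGT, the angiotensin precursor that proximal tubules make, was at 6.80 and 7.33 in NSLC and at 6.68 and 6.63 in HSLC, a ratio of -0.70. The receptors AGTR1 and AGTR2 were at -0.02 and 0.00, and MAS1 at 0.22. In the kallikrein and kinin list 7 of 8 were below 0, with a median of -0.09, KLKB1 (plasma kallikrein) at -0.48, KLK1 (tissue kallikrein) at -0.14, the kinin receptor BDKRB2 at -0.06 and the precursor KNG1 at 0.37. In the nitric oxide list DDAH1, which clears an inhibitor of nitric oxide synthesis, was at 8.33 and 8.80 in NSLC and at 7.76 and 7.76 in HSLC, a ratio of -1.03, and ASS1, which helps to regenerate arginine, was at -0.80. NOS3 and NOS2 were at -0.02 and 0.03. The endothelin receptor EDNRB was at 0.35 and the peptide EDN1 at 0.04. The water channels AQP1 and AQP11 of the proximal tubule were at -0.16 and -0.80.

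Injury and matrix lists had medians close to that of all genes, and the collagen median was slightly above it. HAVCR1 (KIM-1, a marker of proximal tubule injury) was at 6.54 and 9.21 in NSLC and at 6.98 and 9.64 in HSLC, a ratio of 0.43. MMP7, a metalloproteinase of injured tubules, was at 6.13 and 9.62 in NSLC and at 6.58 and 9.62 in HSLC, a ratio of 0.00. For HAVCR1 and MMP7 both high sodium arrays lay above both low sodium arrays. TIMP1, an inhibitor of matrix proteases, was at 0.68, ANXA1 at 0.47, VIM (vimentin) at 0.33 with a sign that turns in 2 of 8 other scalings, SERPINA3 at -0.39, GDF15 at -0.59 and ATF3, the 1 member at 2-fold, at -1.06. The injury list had 12 of 20 above 0 and a median of 0.09, which turns negative in 2 scalings. Of 19 collagens 13 were above 0 and 0 at 2-fold, with a median of 0.14 that turns negative in 1 scaling, and COL6A1 (0.68), COL6A3 (0.60), COL4A2 (0.47) and COL4A1 (0.46) led while COL1A1 and COL3A1 were both at 0.02. Relative to the median of all genes, the collagen median ranged from 0.07 to 0.29 over 8 other scalings. The wider matrix list had 18 of 27 above 0 and a median of 0.03 that turns negative in 3 scalings, with MMP9 (1.52) as its 1 member at 2-fold and SPARC (-0.56) and TIMP2 (-0.64) on the other side. The other detected probe of TIMP2 gave -0.00.

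Other cell types were checked for their share in these values. Smooth muscle markers had a median of -0.21, and all 10 were detected, with 6 below 0, 4 above 0 and 0 at 2-fold. ACTG2 was at -0.95, MYH11 at -0.66 and ACTA2 at -0.56, while LMOD1 was the highest at 0.21. Their summed normalized intensity was 6953 and 13906 in NSLC and 6554 and 10702 in HSLC, highest on the NSLC high sodium array. Endothelial markers had a median of -0.01 (12 of 14 detected), with TEK and EMCN at -0.63 and -0.57 and CDH5 and CLDN5 at 0.07 and 0.19. Skeletal muscle markers, which set the HSLC low sodium array apart with a summed intensity of 26570 against 2816 to 4178 on the other 3, had a median of 0.09 on high sodium and 0 at 2-fold there. The part of smooth muscle and of other cells in the lower ratios was not tested.

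The same contrast on low sodium uses 2 other arrays. There 35 genes were higher in HSLC (0.283% of 12358) and 6 lower (0.0486%), and 15 of the higher ones were genes of the skeletal muscle list, of which the high sodium contrast held 0. The genes at 2-fold the same way on both diets were 7, which is 12.5% of those on high sodium and 17.1% of those on low sodium, and 0 went opposite ways. ANXA10, HBG1 and HBG2 were higher on both, with 1.16, 1.83 and 2.03 on high sodium and 1.47, 1.30 and 1.29 on low sodium. Lower on both were SET (-1.58 and -1.66), TNS3 (-2.24 and -1.01), ADD3 (-1.25 and -1.01) and DHRS3 (-1.04 and -1.17), the last a reductase that limits retinoic acid. With 1 array on a side these 7 are the genes for which 2 separate pairs of arrays gave the same answer by size, although the arrays of a phenotype may come from the same animals.

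Most genes lower on high sodium kept their side on low sodium, while the higher genes did so less often. Of the 44 genes lower on high sodium 41 were also below 0 on low sodium, 4 of them at 2-fold. The median of the 44 there was -0.54, and 48.2% of all genes were below 0. Of the 11 higher genes detected on all 4 arrays 7 were above 0, and 3 of these 7 were the genes at 2-fold on both diets. Over 11909 genes the ratios of both diets had a Pearson r of 0.38 and a Spearman rho of 0.28, a description across genes that share 4 arrays normalized together. DEFA1B, CAMP, EIF1, C3, MMP9 and MPO had low sodium ratios of 0.78, 0.34, -0.21, -0.03, 0.03 and -0.01.

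**Figure D5:**
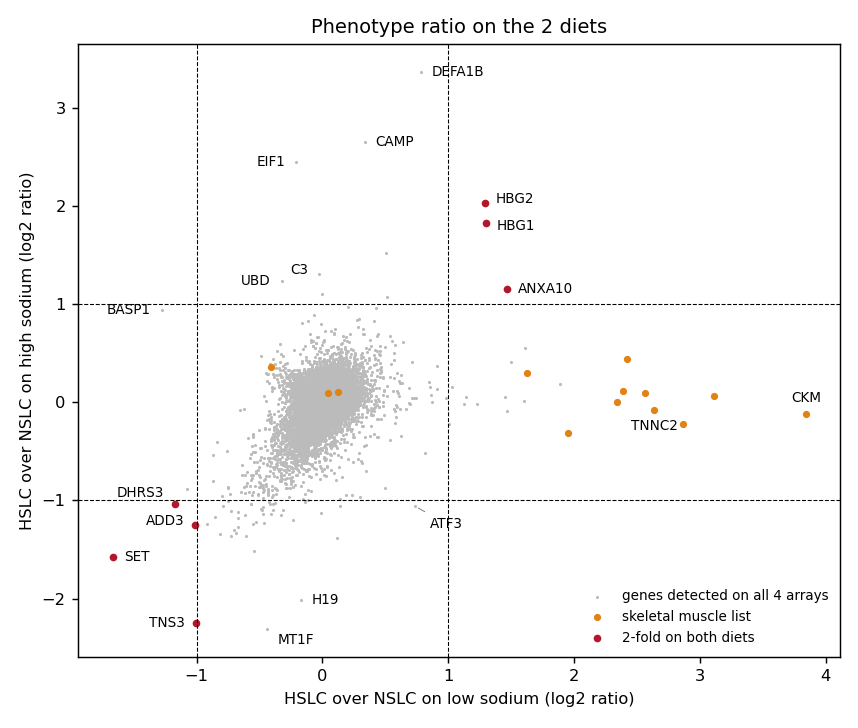
Log2 ratio of HSLC over NSLC on high sodium (vertical) against that on low sodium (horizontal) for 11909 genes detected on all 4 arrays, in grey. Red marks the 7 genes at 2-fold the same way on both diets and orange the skeletal muscle list, which spreads to 3.84 (CKM) on low sodium and stays within 0.44 of 0 on high sodium.

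How reproducible a ratio is can be judged here only between probes of 1 gene on the same arrays. Among 1473 genes with 2 detected probes the standard deviation between probes of a gene was 0.168. It is the standard deviation of the difference between the 2 ratios, divided by the square root of 2. Of the 56 genes at 2-fold, 6 had a second detected probe, all 6 with the same sign and 2 of them also at 2-fold, while 50 rested on 1 probe. For PPP2R1B, a subunit of protein phosphatase 2A at -1.11, the second probe gave -0.13. Of 446 genes detected on the HSLC and not on the NSLC high sodium array, AHSP alone was at least 2-fold higher, and ADAMTS4, a protease of the matrix, was next with at least 1.61-fold. Of 537 genes detected on the NSLC and not on the HSLC high sodium array, 0 reached 2-fold, and the largest bounds were at least 1.88-fold lower for USP38 and 1.72-fold lower for ATF6, a sensor of endoplasmic reticulum stress.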

How the data were processed

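Kidney biopsy RNA was isolated with Trizol and RNeasy columns, per the labels' protocols. The deposited files hold linear signal intensity for 48702 probes, made by the authors with BeadStudio, per the submitters' processing notes, which name no version; the sources used here do not give any correction or normalization by the authors. The deposited series matrix, also linear intensity, served as an alternative. Arrays give no read depth, and their number, 1 a group, limits the precision.

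With limma 3.58.1 in R 4.3.3, 1 probe listed at 0 was left out, normexp background correction with an offset of 50 and quantile normalization of 4 arrays were applied, and log2 was taken; the offset compresses the ratios of dim genes. Detected means above the array's median. Of the probes 23687 had 1 gene symbol, 35 several and 24979 none; for each gene the probe of highest mean level over the 4 arrays was taken. For a gene detected on 1 of the 2 high sodium arrays, the bound sets the other at its median level. Probes were named through the platform annotation, with 28 older symbols of list members updated.

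The members, lists, size rule and 12 alternatives were chosen with earlier results of these data known, and 1 alternative was added after seeing the data. The naming rule picks 304 genes, not all of them given in the text. It takes the 15 highest and 15 lowest ratios above the median signal of detected genes, the 6 largest bounds each way, up to 4 members of each list, all detected members of 8 sodium and hormone lists, and genes at 2-fold on both diets. Genes outside that rule, further list members among them, were picked after their values were seen. List medians are over detected members. The pipeline was tested on simulated data.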

Additional observations from a re-analysis of the deposited data

Results flagged for a closer look

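Among the genes picked by the naming rule, 3 were on opposite sides of 0 in the 2 diets with 2-fold on at least 1 of them. On each diet their ratio was also over 2 times that diet's standard deviation between probes of a gene. This standard deviation was 0.168 on high sodium and 0.146 on low sodium. Other genes changed sign by less, and none of these differences was tested. ATF3 had a ratio of -1.06 on high sodium and 0.74 on low sodium. BASP1, a membrane-bound signalling protein, was at 8.52 and 8.11 in NSLC and at 7.24 and 9.05 in HSLC, with ratios of 0.94 and -1.28. UBD had 1.24 on high sodium and -0.32 on low sodium.

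Among the 8600 detected probes without a gene symbol, which none of the comparisons uses, 4 were at 2-fold higher and 18 at 2-fold lower in HSLC on high sodium, between 1.82 and -2.04.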

How the results depend on the processing

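Over 13 alternatives the number of genes at 2-fold higher in HSLC on high sodium stayed between 9 and 18, except at 1.5-fold, which gave 58. The number lower was 158 without normalization, 118 with median scaling, 126 in the series matrix as deposited (an alternative added after seeing the data), 79 with an offset of 16 and 270 at 1.5-fold, and 42 to 57 in the others. Centred on the median of all genes, the first 2 both gave 15 higher and 95 lower, and 40 to 44 of the 44 lower genes stayed at 2-fold in every alternative. The share of higher genes among those past 2-fold was 7.81% with median scaling and 8.70% in the series matrix as deposited. Genes detected on 1 of the 2 high sodium arrays only and at least 2-fold apart were 2 without normalization, 9 with an offset of 16, 4 with detection above the 75th percentile, 10 at 1.5-fold and 2 in the series matrix as deposited. Genes at 2-fold the same way on both diets were 4 without normalization, 4 with median scaling and 38 at 1.5-fold. In the series matrix as deposited the mean intensity was 215.229 on both NSLC arrays and 191.942 on both HSLC arrays. These means were equal within a phenotype and lower in HSLC, so its ratios of HSLC over NSLC carry that difference in scale. How far this accounts for its counts, and the cause of the shifts in the other alternatives, was not tested. Of the 37 named genes at 2-fold, 34 to 37 stayed there where detected and 0 changed sign; ANXA10, SLC30A9 and UBD fell short without normalization, ANXA10 and UBD with median scaling, GPX3 with the 2 arrays normalized alone, and ANXA10, SLC30A9 and SCNN1A in the series matrix. No paired analysis was possible because each group has 1 array and the labels give no replicate numbers. The signal over background limits what can be seen. The 3130 dimmest detected genes held 0 genes at 2-fold, an outcome that the detection rule fixes. It puts both levels above 6.23, and the mean of both levels in these genes was at most 6.57. The 3129 brightest held 6 higher and 26 lower.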

Other observations

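The list of keratins and dedifferentiation genes had 8 of 13 detected members above 0 and 0 at 2-fold, with a median of 0.04 that turns negative in 3 of 8 other scalings. EPCAM, an adhesion protein of tubule epithelium, was at 9.67 and 10.28 in NSLC and at 9.12 and 9.53 in HSLC, a ratio of -0.74. CD44, a hyaluronan receptor, was at 8.06 and 8.42 in NSLC and at 8.01 and 9.03 in HSLC, a ratio of 0.61, and CDH6, a cadherin of the developing proximal tubule, was at 0.61. In glycolysis ENO1 had the highest ratio, 0.61, and TPI1 the lowest, -0.59, about a list median of 0.04 that turns negative in 3 of 8 other scalings.

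Steroid and prostaglandin enzymes gave a few values of size. HSD11B1, which regenerates cortisol, was at -0.56 on high sodium and 0.01 on low sodium. PTGDS, a prostaglandin D synthase, was at 6.47 and 6.33 in NSLC and at 6.41 and 7.22 in HSLC, a ratio of 0.89, and PTGES3, a cochaperone also named for prostaglandin E synthesis, at -0.61. CYP21A2, an enzyme of the adrenal cortex, was at -0.94, beside a median of 0.03 over 5 detected adrenal markers, which turns negative in 2 scalings. HSPD1, the mitochondrial chaperonin, was at -0.85 beside a median of 0.02 for the heat shock list, which turns negative in 4 of 8 other scalings. The other detected probe of HSPD1 gave 0.02.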
